A study of Homo sapiens with 18 samples.

Results

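PC9 cells exposed to the DNA-crosslinking drug carboplatin were compared with PC9 cells given only the solvent DMSO. The comparison rests on 6 of the 18 libraries of the series, 3 per group, chosen by their sample titles. PC9 is a human non-small-cell lung cancer line that carries an activating deletion in the kinase EGFR. The carboplatin group (carboplatin_72h) received 50 µM carboplatin for 72 hours, with medium and drug renewed every day. The control group (parental_DMSO) received DMSO, for a time that the labels do not give. Where a change was set against other drugs, the groups were erlotinib_24h, cells left for 24 hours in 1 µM of the EGFR inhibitor erlotinib without a change of medium, and DTP, the drug-tolerant cells that remained after 8 days in 1 µM erlotinib with new medium every 3 days. The share of reads from long genes was also taken in the parental_TSA and DTP_TSA groups, parental cells and drug-tolerant cells exposed to trichostatin A (TSA, an inhibitor of histone deacetylases) at 50 nM for 5 hours with no new medium, and both groups enter the fits of all 18 libraries. All groups are the same line, grown in RPMI-1640 with 10% fetal bovine serum. Between the drug groups, the renewal of medium and the time under treatment differed together with the drug. Whether they also differed between the carboplatin and DMSO groups is not stated. Whether libraries a, b and c of a group came from independent cultures is not stated, so a p-value reflects the scatter of these libraries, which may be technical.

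Carboplatin binds to neighbouring purines and ties DNA strands to each other or to themselves. Such lesions stop replication forks and elongating RNA polymerase II. Crosslinks between strands are opened by the Fanconi anaemia proteins and closed through translesion synthesis and homologous recombination, whereas crosslinks within a strand are cut out by nucleotide excision repair, which also serves stalled polymerases. Stalled forks activate the kinases ATR and CHEK1, which hold cells before mitosis.

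The 6 libraries held 71799593 to 83466071 gene reads (expected counts from polyA-selected RNA). ERCC RNA, a set of synthetic transcripts added in proportion to cell number, gave 0.539, 0.524 and 0.538 reads per 100 gene reads in parental libraries a, b and c and 0.417, 0.321 and 0.401 in carboplatin libraries a, b and c. Every carboplatin library was lower, the mean log2 difference was -0.50, and an exact 2-sided permutation test gave p = 0.1, the smallest value that 3 libraries against 3 allow. All 35 ERCC transcripts with at least 100 reads were lower, with log2 differences of -0.60 to -0.33. The markers that would define this line's tissue were partly absent, since NKX2-1, NAPSA and SFTPB were under 1 CPM in all 6 libraries, while the summed epithelial markers ran from 4720 to 4860 CPM in parental and from 3820 to 4290 CPM in carboplatin libraries. Markers of other cell types were at or near 0 for 8 of 9 fibroblast genes (DCN without a read), 4 of 6 endothelial genes and 6 of 7 leukocyte genes (PTPRC and CD3E among them). The summed fibroblast level rose from 4.47 to 4.55 CPM to 17.8 to 25.3 CPM, through COL1A1, the endothelial sum from 16.6 to 17.5 CPM to 44.8 to 47.5 CPM, largely through CDH5, and the leukocyte sum from 28.4 to 30.9 CPM to 65.0 to 68.1 CPM, largely through CD68. Pearson correlations across genes were at least 0.997 within a group and at most 0.965 between groups.

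Each gene was compared on 2 scales. Scaled to gene reads, a value is a gene's CPM over a library total adjusted by TMM. A log2 change called a change in share is a change in this value, not in the plain fraction of reads. The TMM factors were 0.953 to 0.964 in parental and 1.04 to 1.05 in carboplatin libraries. With totals that were not TMM-adjusted, the median change of all genes was 0.17 in place of 0.04. Scaled to ERCC reads, it is an amount per cell as far as the spike-in was added evenly. In these bulk samples fewer cells of a type and less RNA per cell cannot be told apart. A gene is called higher or lower at a Benjamini-Hochberg adjusted p under 0.05 in edgeR's quasi-likelihood test over all 15967 genes tested, and errors of log2 changes are standard errors. Scaled to gene reads, 6453 genes were higher (40.4%) and 5963 lower (37.3%), or 7571 and 4919 with library totals that were not TMM-adjusted. Scaled to ERCC reads, 10859 were higher (68.0%) and 1423 lower (8.91%), the latter rising to 2398 without carboplatin library b, the library with the fewest ERCC reads. By the plainer criterion that the 3 libraries of each group do not overlap, 6593 genes were higher (41.3%) and 6093 lower (38.2%) on gene reads, and 11361 higher (71.2%) and 1507 lower (9.44%) on ERCC reads. The median change of all genes was 0.04 on gene reads and 0.67 on ERCC reads, and the scales differed by 0.63 for the median gene. For well-covered genes this difference ran from 0.49 to 0.75. A gene whose TMM-scaled value fell by less than its own difference was therefore higher per ERCC read. The variation of ERCC reads is shared by every gene, and on that scale edgeR estimated no spread of a gene's own (infinite prior degrees of freedom), so its p-values are likely too small. Calls on ERCC reads are therefore counts to be read beside those of non-overlap, and single genes are given there by their log2 change without a p.

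The response was ordered by the length of the gene on the chromosome, from its first to its last base with introns. Genes spanning under 2 kb had a median log2 change of 0.59 (544 genes), and the median fell with every step in span, to 0.24 at 10 to 20 kb (2611 genes), -0.13 at 50 to 100 kb (2397 genes), -0.39 at 100 to 200 kb (1609 genes), -0.96 at 200 to 500 kb (788 genes) and -2.0 at 500 kb or more (170 genes). Of the 170 longest genes, 81.8% were called lower and 8.82% higher, against 37.3% and 40.4% of all genes. Scaling to ERCC reads moves all genes by a similar amount, so it could hardly alter this order and is no second test of it. The medians there ran from 1.20 under 2 kb through 0.51 at 50 to 100 kb and 0.25 at 100 to 200 kb. They reached -0.33 at 200 to 500 kb and -1.38 at 500 kb or more. Genes of 50 to 200 kb thus had a median below 0 on gene reads and above 0 on ERCC reads. For genes over 200 kb the median was below 0 on both scales. In the longest class 69.4% of genes had all 3 carboplatin libraries below all 3 parental libraries on ERCC reads. Each carboplatin library showed the loss alone, with medians of -2.01, -1.89 and -1.93 in libraries a, b and c for genes of 500 kb or more.

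**Figure D1:**
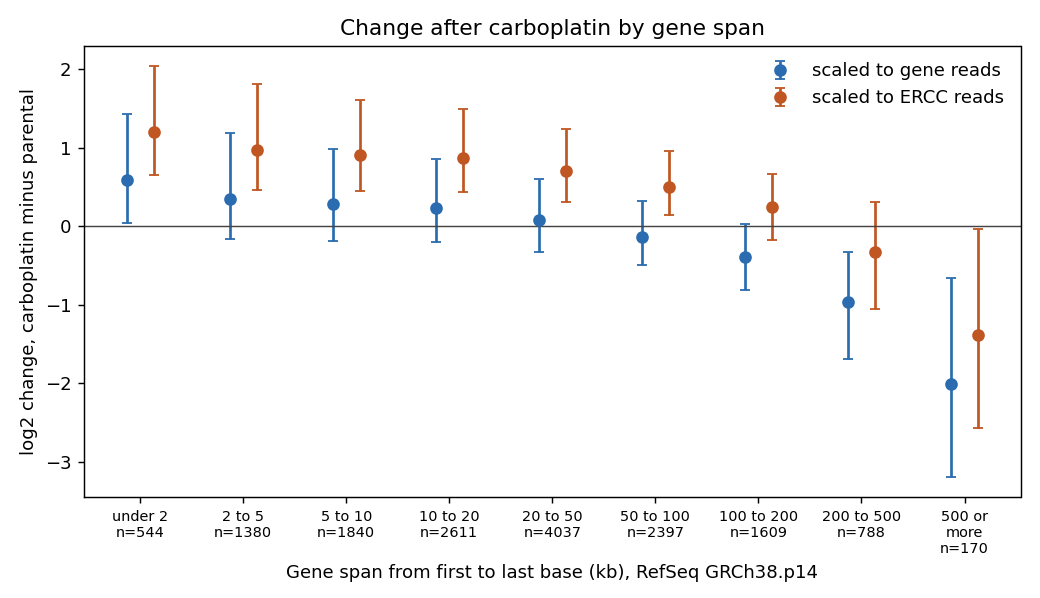
Median log2 change (carboplatin minus parental) of 15376 tested genes with a known span, in 9 classes of gene span in kb, with bars from the lower to the upper quartile of genes. On gene reads the medians fall from 0.59 to -2.0, and on ERCC reads from 1.20 to -1.38.

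The order by span was not one by the length of the mature RNA. Across 13590 protein-coding genes, Spearman's rho with the log2 change was -0.375 for gene span and -0.087 for spliced length (genes are not independent replicates and share these 6 libraries). Genes of 200 kb or more had medians of -1.14, -1.14 and -1.08 where the spliced RNA was under 1.5 kb, 1.5 to 3 kb and 3 kb or more. The median of the short genes differed with level. Genes under 10 kb had 0.92 among the genes with the lowest mean level and 0.01 among those with the highest. Genes of 200 kb or more had -1.43 and -0.72. At low level a gene may pass the filter on low counts only through the group where it is higher, and then had to differ. The medians at low level are therefore descriptions. This bears on the genes under 2 kb, whose median parental level was 0.658 CPM. The tables give 1 value per gene, so reads from the start and the end of a gene could not be separated.

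The share of gene reads that came from genes of 200 kb or more was 3.51%, 3.62% and 3.59% in the parental libraries and 2.36% ± 0.0447 (SD, n = 3) after carboplatin. No libraries overlapped, and the log2 difference of -0.60 had the smallest p that an exact permutation test of 3 against 3 can give, 0.1. Per ERCC read these genes gave 6.70 ± 0.199 reads in parental and 6.29 ± 1.03 in carboplatin libraries (SD, n = 3), a difference of -0.10 on the log2 scale within the spread of the libraries (exact permutation p = 0.4). Genes under 10 kb went the other way, from 27.5% to 30.8% of gene reads and from 51.6 to 82.0 reads per ERCC read. The parental_TSA libraries, a treatment without crosslinks, varied among themselves in the share of long genes, from 2.56% in library a to 3.73% in library c, so this share is not fixed between replicates of every group.

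**Figure D2:**
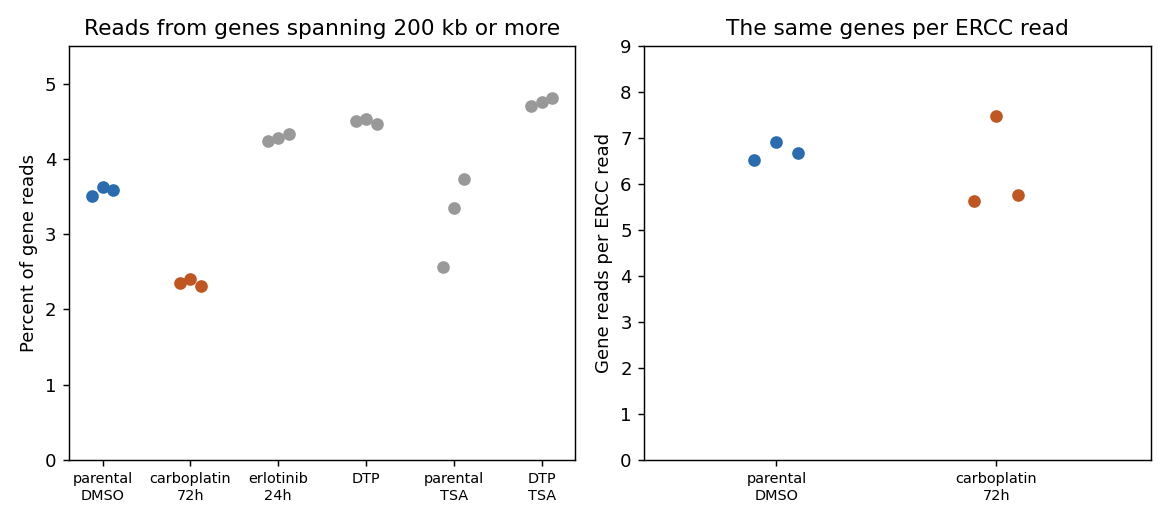
Left, percent of gene reads from genes spanning 200 kb or more in each of the 18 libraries, by group; right, reads of the same genes per ERCC read in the 6 libraries compared. The 3 carboplatin libraries lie below every other library on the left, while 1 of them lies above the parental libraries on the right.

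Among the genes of 200 kb or more, 765 of 958 were called lower on gene reads and 507 on ERCC reads. The 12 genes with the largest falls, chosen among those above 10 CPM that did not overlap and that were called on both scales, all spanned 353 to 1110 kb (median 516 kb), although span had no part in the choice. PTPRG, a receptor tyrosine phosphatase with a gene of 736 kb, stood at 32.8, 34.6 and 35.2 CPM in parental libraries a, b and c and at 1.20, 1.07 and 1.30 CPM in the carboplatin libraries, a log2 change of -4.84 ± 0.07 (-4.22 on ERCC reads). SLC8A1, the sodium-calcium exchanger, went from 15, 15.3 and 14.3 CPM to 0.611, 0.422 and 0.362 CPM (-4.98 ± 0.14). These levels left little more than a few per cent of the parental share in each carboplatin library. WWOX, an oxidoreductase gene at a common fragile site, spans 1110 kb and dropped from 19, 18.7 and 18.1 CPM to 1.35, 1.28 and 1.27 CPM. HDAC4, a class II histone deacetylase, fell from 24.7, 26.0 and 26.4 CPM to 1.55, 1.24 and 1.88 CPM. The others were SORCS2 (-4.82), SEMA5A (-4.41), SHANK2 (-4.14), the mitochondrial phenylalanine tRNA synthetase FARS2 (-4.13), SCFD2 (-4.08), SUPT3H (-4.02), the TGF-beta-binding protein LTBP1 (-4.01) and SETBP1 (-3.86), with changes of -4.37 to -3.21 for the 12 genes on ERCC reads.

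Not every long gene fell. Of the 958 genes of 200 kb or more, 99 were called higher, 56 of them at 10 CPM or more. FILIP1L, with a gene of 286 kb, rose from 7.33, 8.34 and 7.64 CPM to 39.9, 41.3 and 37.2 CPM (2.34 ± 0.06). HDAC9, a class II deacetylase like HDAC4 but with the longer gene of 916 kb, rose from 36.7, 39.0 and 36.9 CPM to 91.3, 94.5 and 89.4 CPM (1.29 ± 0.04). Both deacetylase genes were outside the spread of the libraries, in opposite directions. The mucin gene MUC16 (1.69), the LIM-domain gene LMO7 (1.58), the collagen gene COL4A6 (1.28) and FRMD4B (2.09) also rose.

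The 12 genes with the largest rises by the same rule had short genes, of 3.02 to 88.8 kb (median 12.8 kb). GDF15, a secreted stress cytokine, rose from 2.95, 2.80 and 2.80 CPM to 63.8, 56.7 and 76.3 CPM, a log2 change of 4.52 ± 0.12 (5.14 on ERCC reads). ATF3, a stress-induced transcription factor, rose from 3.85, 3.90 and 3.43 CPM to 75.4, 76.2 and 73.5 CPM (4.33 ± 0.06). STC1, the secreted hormone stanniocalcin, went from 7.36, 7.70 and 7.74 CPM to 114, 114 and 110 CPM (3.89 ± 0.04). Nearly absent before treatment were RND1, at 0.414 to 0.563 CPM before and 23.5 to 25.1 CPM after carboplatin, and TENT5C, a poly(A) polymerase, at 0.582 to 0.995 and 32.1 to 33.0 CPM. Among the remaining genes were NATD1 (5.51), HAP1 (4.76), the channel subunit CNGB1 (4.06), the water channel AQP3 (4.0), YPEL3 (3.83) and NFATC4 (3.83), and on ERCC reads the 12 changes were 4.44 to 6.23.

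Transcripts of the crosslink repair pathway did not rise as a whole. Of 24 Fanconi genes tested, 8 were higher and 14 lower, with a median of -0.43 on gene reads and 0.21 on ERCC reads (all genes: 0.04 and 0.67). The higher members numbered 5 without parental library a, without carboplatin library b or with DESeq2. The core complex, which ubiquitinates the FANCD2-FANCI clamp, had 4 higher and 8 lower members of 12. Its ligase subunit FANCL rose from 20, 20.2 and 18.2 CPM to 46.3, 46.4 and 42.7 CPM (1.21 ± 0.06), and FAAP24, which helps the complex to bind DNA, from 7.55, 7.58 and 6.49 CPM to 15.7, 16.3 and 15.4 CPM (1.13 ± 0.07). The subunit FANCC, whose gene spans 219 kb, fell from 23.0, 24.9 and 24.8 CPM to 7.64, 7.55 and 7.45 CPM (-1.68 ± 0.05), and was lower on ERCC reads as well (-1.05). FANCF (-1.08) and FAAP100 (-1.19), both with short genes, were also lower on both scales. The clamp itself was lower in share, with FANCD2 at -0.42 and FANCI at -0.48, and neither passed the test on ERCC reads (0.22 and 0.15). USP1, which removes ubiquitin from the clamp, was at -0.49, while WDR48, its activator, rose by 0.74. The nuclease partners ERCC1 and ERCC4, which unhook the crosslink together, moved apart in share, ERCC1 to 0.58 ± 0.05 and ERCC4 to -0.54 ± 0.05 (1.21 and 0.10 on ERCC reads).

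No gene of homologous recombination rose on gene reads. Of 19 tested, 15 were lower, with a median of -0.58 (0.06 on ERCC reads, where 7 were higher and 4 lower). Over all genes 40.4% were higher and 37.3% lower on gene reads, and 68.0% and 8.91% on ERCC reads. NBN of the break-sensing complex (132, 138 and 133 CPM to 66.1, 71.3 and 67.8 CPM, -0.97 ± 0.04) and the resection nuclease DNA2 (-0.98) fell on both scales. BRCA1 at 59.1, 65.3 and 62.4 CPM before and 60.0, 66.5 and 57.7 CPM after carboplatin, and MRE11 (0.09 ± 0.06), did not pass the test. Translesion synthesis divided between its polymerases. POLH, which copies past platinum adducts, rose from 19.8, 20.4 and 19.1 CPM to 31.8, 33.0 and 30.6 CPM (0.69 ± 0.05). REV3L, the catalytic subunit of polymerase zeta with a gene of 185 kb, fell from 42.5, 47.4 and 47.4 CPM to 21, 21.3 and 20.4 CPM (-1.13 ± 0.05, -0.49 on ERCC reads).

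In nucleotide excision repair 8 of 21 genes were higher and 13 lower, with a median of -0.18 (0.44 on ERCC reads). Over all genes 40.4% were higher and 37.3% lower. The higher members were thus near the share of all genes and the lower members above it. The nuclease ERCC5 rose most, from 15.9, 18.3 and 17.5 CPM to 43.9, 46.6 and 46.8 CPM (1.41 ± 0.06). The lesion sensors XPC (0.32 ± 0.05) and DDB2 (0.50 ± 0.06) rose by less. GTF2H2, a subunit of the TFIIH helicase complex whose reads may be shared with a near-identical copy, was the lowest at -1.21. Among 21 checkpoint genes 5 were higher and 11 lower (median -0.17, 0.47 on ERCC reads), and the higher members numbered 3 without any 1 of the parental libraries or with DESeq2. The apical kinases fell in share, ATR from 90.7, 97.2 and 89.2 CPM to 59.2, 60.4 and 56.1 CPM (-0.66 ± 0.04, -0.02 on ERCC reads) and ATM, with a gene of 146 kb, from 39.0, 40.3 and 36.9 CPM to 20.1, 21 and 18.9 CPM (-0.95 ± 0.06, -0.31 on ERCC reads). CHEK1 went from 69.6, 70.8 and 66.0 CPM to 53.4, 54.3 and 50.5 CPM (-0.38 ± 0.04, 0.26 on ERCC reads). CDC25C, the phosphatase that the checkpoint restrains at mitotic entry, rose from 12.1, 10.5 and 10.9 CPM to 26.6, 26.7 and 25.6 CPM (1.23 ± 0.06).

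The transcripts of S phase and of mitosis moved in opposite directions in share. Of 35 DNA replication genes, 28 were lower and 3 higher (TK1, ORC6 and GINS4), with a median of -0.51 (0.13 on ERCC reads). The largest fall was that of POLA1, the catalytic subunit of the primase-polymerase in a gene of 303 kb, from 92.2, 92.4 and 87.2 CPM to 20.6, 21.6 and 21.1 CPM (-2.10 ± 0.04, -1.46 on ERCC reads). Short genes of the same list fell too. GINS1, part of the replicative helicase, went from 35.8, 35.7 and 33.2 CPM to 10.9, 10.8 and 11.0 CPM (-1.68 ± 0.05, -1.05 on ERCC reads) and PRIM1, the primase, was at -1.14 ± 0.05. MCM6, a subunit of the helicase ring, went from 167, 166 and 162 CPM to 89.5, 93.4 and 90.5 CPM (-0.86 ± 0.03), with overlapping libraries on ERCC reads (-0.22). TK1, thymidine kinase, rose from 47.1, 44.8 and 48.5 CPM to 79.4, 70.5 and 88.4 CPM (0.76 ± 0.08).

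Of 30 mitotic genes, 20 were higher and 5 lower, with a median of 0.28. On ERCC reads the median was 0.92, and 29 were higher and none was lower at the adjusted p. The shares of all genes were 40.4% higher and 37.3% lower on gene reads, and 68.0% and 8.91% on ERCC reads. PTTG1, the securin that guards sister chromatids, rose from 77.3, 75.4 and 75.4 CPM to 178, 177 and 174 CPM (1.21 ± 0.03). CCNB2, cyclin B2, rose from 37.6, 37.0 and 36.8 CPM to 60.1, 61.5 and 61.4 CPM (0.72 ± 0.04), and its kinase CDK1 from 262, 268 and 247 CPM to 387, 408 and 380 CPM (0.60 ± 0.04). The kinesin KIF20A rose by 1.02 ± 0.03. The proliferation marker MKI67 rose by 0.19 ± 0.05, from 301, 328 and 334 CPM to 369, 379 and 352 CPM, and did not pass the test without parental library a (0.12). CDC20, the activator of anaphase, went the other way at -0.33 ± 0.04 (0.31 on ERCC reads).

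The replication-dependent histone genes, whose messages normally end in a stem-loop without a poly(A) tail, rose in share. The list held 69 genes, of which 38 passed the filter on low counts, 29 were called higher and none lower, with a median of 2.14. In 21 of the 38 the parental libraries alone would not have passed the filter, and such members had to differ, so the count and the median are descriptions. Of the other 17 genes all 17 were called higher. H2BC12, which has enough reads in both groups, rose from 52.2, 50.1 and 54.3 CPM to 155, 147 and 165 CPM (1.58 ± 0.05, 2.21 on ERCC reads). H2BC21 rose from 1.94, 2.15 and 1.71 CPM to 15.9, 15.7 and 16.9 CPM (3.06 ± 0.09), and the linker histone gene H1-2 from 4.42, 5.08 and 4.11 CPM to 20.8, 20.4 and 22.4 CPM (2.22 ± 0.08). H2AC18 and H2AC19, H4C14 and H4C15, and H3C14 and H3C15 had identical values in the table, so their reads cannot be assigned to 1 gene. Libraries were polyA-selected, so these values count the polyadenylated part of the histone messages.

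Promoters of these lists differ in the short motifs they hold, and 2 promoters per list are printed to show them. Sequences and positions are from RefSeq (GRCh38.p14), 250 bases before to 50 after the start, written 5′ to 3′ on the gene's strand, and capitals mark the motif on either strand. The octamer ATTTGCAT, known from histone H2B genes, was in 14 of 37 histone promoters (37.8%). Those of H2AC6, H2AC7, H2AC8, H2AC11, H2AC17 and H3C4 were among them. Holders were counted per gene and windows were not checked for overlap, so the same octamer may be counted for several genes. It was in 1.77% of all 35116 promoter windows and in 1.88% of the promoters of tested genes. An E2F-type motif, TTTCCCGC or TTTGGCGC, was in 15 of 30 replication promoters (50.0%) and in 2 of 25 mitotic promoters, against 2.27% of all windows and 4.36% of tested genes. The cell-cycle homology region TTTGAA was in 17 of 25 mitotic promoters (68.0%) and in 1 of 30 replication promoters (RRM1), against 15.2% of all windows and 13.8% of tested genes. No motif searched contains another, and a match is a description of these letters, not evidence that a factor binds there.
H2BC21 (chr1:149886633-149886932, minus strand, octamer): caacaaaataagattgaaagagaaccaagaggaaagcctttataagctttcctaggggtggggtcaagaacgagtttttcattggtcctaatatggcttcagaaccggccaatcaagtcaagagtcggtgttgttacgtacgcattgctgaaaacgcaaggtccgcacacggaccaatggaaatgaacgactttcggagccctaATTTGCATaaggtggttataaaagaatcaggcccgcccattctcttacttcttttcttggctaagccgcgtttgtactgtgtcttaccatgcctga
H2BC12 (chr6:27146809-27147108, minus strand, octamer): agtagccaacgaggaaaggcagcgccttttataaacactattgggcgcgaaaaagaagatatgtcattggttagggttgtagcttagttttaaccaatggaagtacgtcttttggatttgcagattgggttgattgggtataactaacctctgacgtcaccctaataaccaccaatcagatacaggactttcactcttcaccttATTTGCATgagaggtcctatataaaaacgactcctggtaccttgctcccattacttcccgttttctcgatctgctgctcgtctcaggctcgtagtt
MCM6 (chr2:135876394-135876693, minus strand, E2F-type motif): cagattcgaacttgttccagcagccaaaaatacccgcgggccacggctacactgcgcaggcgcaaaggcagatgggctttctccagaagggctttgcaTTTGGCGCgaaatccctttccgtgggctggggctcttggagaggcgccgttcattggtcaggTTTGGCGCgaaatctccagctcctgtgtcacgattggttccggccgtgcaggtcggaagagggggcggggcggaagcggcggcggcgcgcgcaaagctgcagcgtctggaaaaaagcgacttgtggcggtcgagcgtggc
GINS1 (chr20:25407423-25407722, plus strand, E2F-type motif): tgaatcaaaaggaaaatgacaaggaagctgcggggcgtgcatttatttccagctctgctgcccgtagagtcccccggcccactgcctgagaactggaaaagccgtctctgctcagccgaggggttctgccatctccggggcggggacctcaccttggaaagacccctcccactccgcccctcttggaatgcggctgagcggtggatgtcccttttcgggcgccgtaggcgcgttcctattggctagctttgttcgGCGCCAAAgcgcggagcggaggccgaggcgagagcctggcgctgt
CCNB2 (chr15:59104896-59105195, plus strand, cell-cycle homology region): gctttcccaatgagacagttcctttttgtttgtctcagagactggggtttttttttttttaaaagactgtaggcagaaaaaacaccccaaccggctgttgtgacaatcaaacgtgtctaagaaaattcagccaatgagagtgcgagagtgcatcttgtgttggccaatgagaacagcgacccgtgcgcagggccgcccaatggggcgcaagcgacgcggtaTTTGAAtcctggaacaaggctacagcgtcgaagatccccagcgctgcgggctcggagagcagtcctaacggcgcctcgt
PRC1 (chr15:90994486-90994785, minus strand, cell-cycle homology region): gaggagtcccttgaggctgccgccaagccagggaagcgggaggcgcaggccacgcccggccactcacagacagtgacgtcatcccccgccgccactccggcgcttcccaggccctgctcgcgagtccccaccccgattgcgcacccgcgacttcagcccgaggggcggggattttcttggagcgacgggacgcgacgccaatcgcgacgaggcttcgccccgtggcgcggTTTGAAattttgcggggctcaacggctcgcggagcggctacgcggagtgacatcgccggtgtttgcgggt
The H2BC12 and H2BC21 messages with the octamer were higher by 1.58 and 3.06, the MCM6 and GINS1 messages with the E2F-type motif changed by -0.86 and -1.68, and the CCNB2 and PRC1 messages with the cell-cycle homology region were higher by 0.72 and 0.51. Over all holders in these lists, the 14 histone genes with the octamer were higher. Of the 15 replication genes with the E2F-type motif 14 were lower. Of the 17 mitotic genes with the cell-cycle homology region 9 were higher and 3 lower (CDC20, KIF11 and MAD2L1, which were above 0 on ERCC reads). Over the whole lists 29 of 38 histone genes were higher, 28 of 35 replication genes lower and 20 of 30 mitotic genes higher. Histone genes that passed the filter only with the carboplatin libraries, 21 of the 38, were not set apart here and had to differ. Whether holding a motif goes with a change was not tested.

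**Figure D3:**
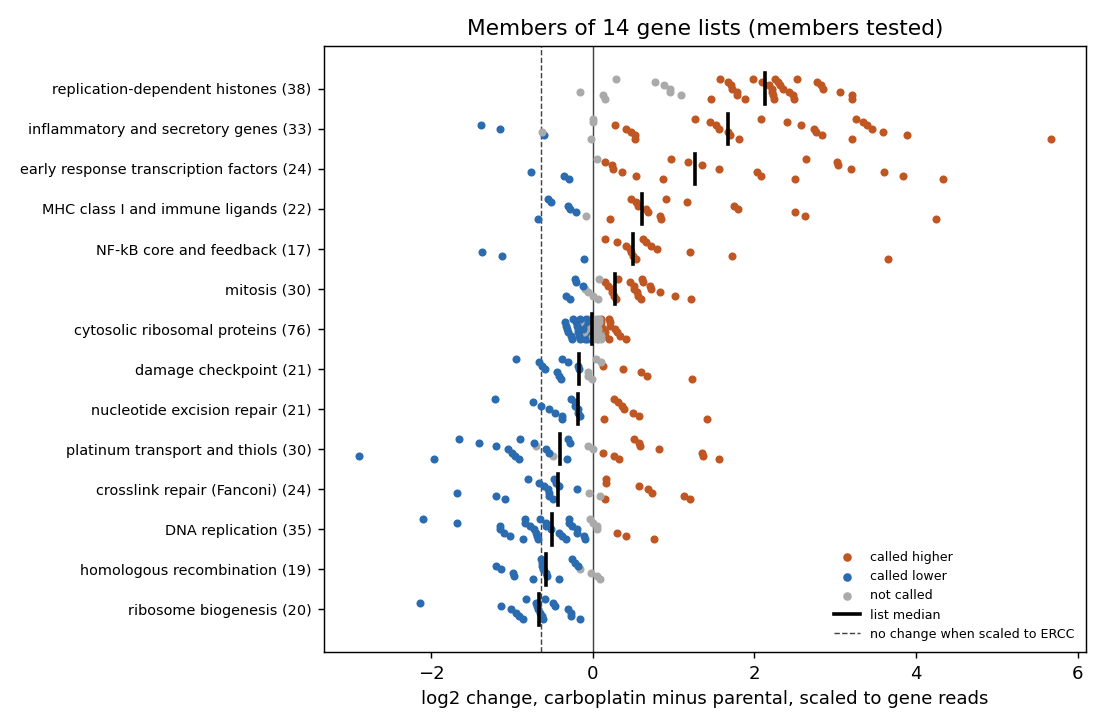
Log2 change (carboplatin minus parental, gene reads) of the tested members of 14 gene lists, 1 point per gene, coloured by call, with a black bar at each list's median and a dashed line where the change on ERCC reads would be 0. Histone genes lie highest (median 2.14) and ribosome biogenesis genes lowest (median -0.66), and the replication list lies at -0.51 beside 0.28 for mitosis.

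In the control of the G1 phase, single inhibitors of cyclin-dependent kinases rose and single partners fell, while the list had no common direction. CDKN1A (p21) rose from 70.1, 65.7 and 70.5 CPM to 252, 235 and 264 CPM (1.86 ± 0.05) and CDKN2B (p15) from 7.99, 7.16 and 7.76 CPM to 57.6, 56.6 and 58.9 CPM (2.92 ± 0.05). CCND1, cyclin D1, fell from 346, 354 and 351 CPM to 167, 166 and 170 CPM (-1.06 ± 0.03). The pocket proteins RB1 (gene of 178 kb, -0.93 ± 0.05) and RBL1 (-1.35 ± 0.08) and the kinase CDK6 (gene of 232 kb, -0.89 ± 0.04) were lower in share, with overlapping libraries on ERCC reads for RB1 (-0.28) and CDK6 (-0.25). Over the list 10 of 21 genes were higher and 8 lower (median 0.09, 0.71 on ERCC reads), near the shares of all genes (40.4% higher and 37.3% lower). For 1 of the 21 only the carboplatin libraries passed the filter on low counts, and of the other 20 genes 9 were higher.

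Single genes of arrest and cell death under stress also moved in both directions. BBC3 (PUMA), which starts apoptosis, rose from 0.685, 0.654 and 0.720 CPM to 5.06, 4.51 and 6.96 CPM (3.00 ± 0.18). The antiproliferative gene BTG1 rose from 68.9, 69.4 and 64.1 CPM to 174, 179 and 170 CPM (1.37 ± 0.04). MDM2, a ubiquitin ligase, did not pass the test at 42.9, 44.1 and 43.7 CPM before and 40.0, 43.8 and 41.5 CPM after carboplatin (-0.06 ± 0.04, 0.58 on ERCC reads). BAX, a pore-forming protein of apoptosis (-0.41 ± 0.05, 0.21 on ERCC reads), and FBXO22, a substrate receptor of a ubiquitin ligase (-0.49 ± 0.05, 0.15 on ERCC reads), fell in share.

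**Figure D4:**
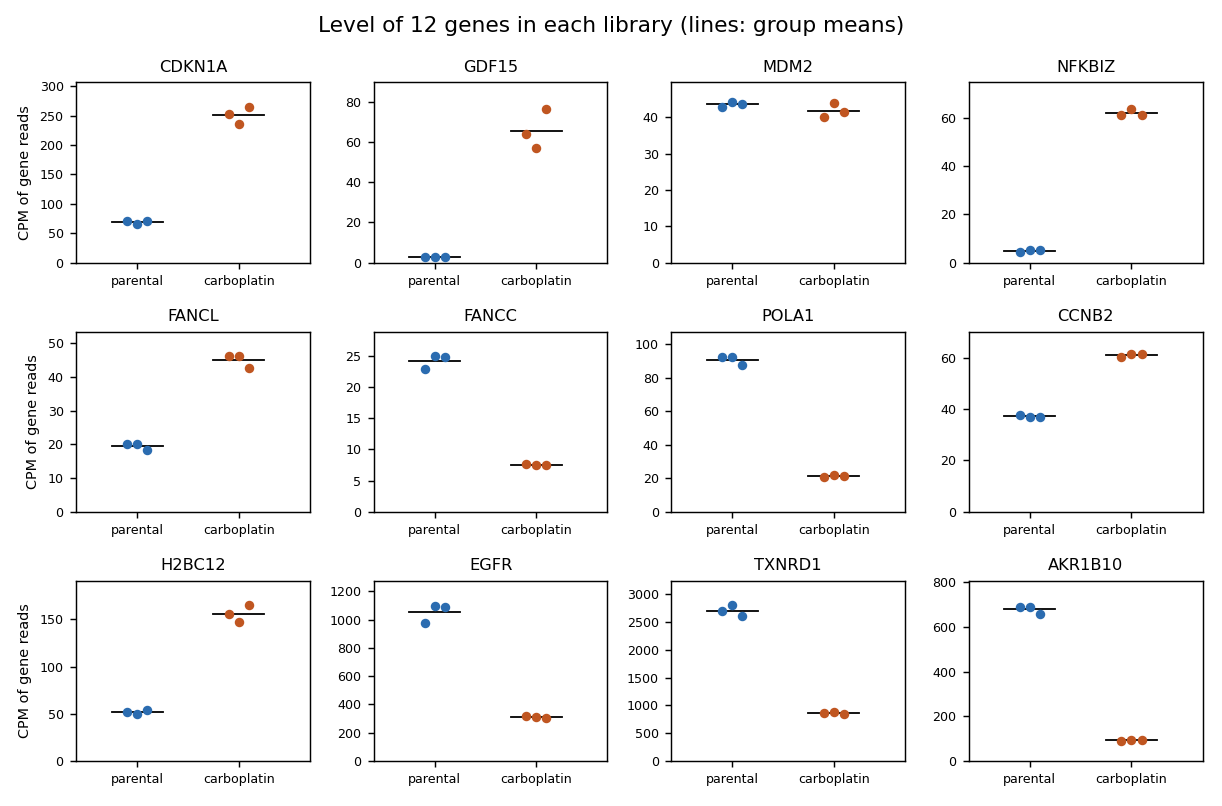
Level in CPM of gene reads of 12 genes in each of the 6 libraries, with lines at group means. Apart from MDM2, the groups do not overlap in any panel: CDKN1A, GDF15, NFKBIZ, FANCL, CCNB2 and H2BC12 are higher after carboplatin, and FANCC, POLA1, EGFR, TXNRD1 and AKR1B10 are lower.

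Secreted and inflammatory genes rose widely. Of 33 tested, 26 were higher and 3 lower (median 1.67, 2.31 on ERCC reads), among them 9 of 9 chemokines (median 2.58). For 5 of the 33 genes, 4 of them chemokines, the parental libraries alone would not have passed the filter on low counts, so they had to be higher, and without them 21 of 28 were higher and 3 lower. IL11, a cytokine of the IL-6 family, rose from 20.2, 18.7 and 17.7 CPM to 231, 213 and 240 CPM (3.59 ± 0.06), and IL6 from 10.4, 10.1 and 10.2 CPM to 70.4, 70.2 and 67.8 CPM (2.76 ± 0.04). ICAM1, the adhesion receptor for leukocytes, rose from 48.9, 49.9 and 51.0 CPM to 215, 202 and 223 CPM (2.09 ± 0.04). Of 17 genes of NF-kB and its feedback 14 were higher and 3 lower (median 0.50). The atypical inhibitor NFKBIZ rose from 4.45, 5.24 and 5.12 CPM to 61.1, 63.6 and 61.2 CPM (3.65 ± 0.07), and the deubiquitinase CYLD by 1.72 ± 0.04. The precursor genes differed: NFKB2, with a gene of 8.42 kb, rose by 0.80 ± 0.06, whereas NFKB1, with a gene of 116 kb, fell from 70.5, 71.4 and 69.5 CPM to 32.5, 32.4 and 32.6 CPM (-1.12 ± 0.04, -0.48 on ERCC reads). The feedback inhibitor TNFAIP3 was close to its parental share, at -0.11 ± 0.03.

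The interferon response list had 25 higher and 4 lower genes of 31 tested (median 1.24, 1.87 on ERCC reads), most of them from low levels. Of the 41 genes listed 10 were not tested, and 4 of the 31 passed the filter only with the carboplatin libraries, so they had to be higher; of the other 27 genes 21 were higher and 4 lower. ISG15, a ubiquitin-like modifier, rose from 3.26, 2.94 and 3.10 CPM to 16.2, 12.6 and 22.1 CPM (2.45 ± 0.19), with carboplatin library b low and c high. IFI6 rose from a mean of 0.06 CPM to 1.74 CPM (4.82). MX1, a classical antiviral GTPase, fell, from 0.763, 0.654 and 0.707 CPM to 0.211, 0.320 and 0.215 CPM (-1.50 ± 0.23). STING1, the adaptor of cytosolic DNA sensing, rose from 8.96, 8.98 and 8.10 CPM to 42.8, 42.8 and 44.6 CPM (2.32 ± 0.05). Ligands of the natural killer receptor NKG2D also rose, MICB from 41.9, 41.3 and 39.5 CPM to 92.9, 93.5 and 90.0 CPM (1.17 ± 0.04) and ULBP2 by 1.75 ± 0.07. B2M, the light chain of MHC class I, went from 345, 342 and 325 CPM to 634, 661 and 608 CPM (0.91 ± 0.04). The checkpoint ligand CD274 (PD-L1) was lower in share at -0.28 ± 0.05 (0.35 on ERCC reads). Over the MHC class I and ligand list 15 of 22 genes were higher and 6 lower (median 0.61). For 1 of the 22 only the carboplatin libraries passed the filter, and of the other 21 genes 14 were higher and 6 lower. Reads of HLA and RAET1 genes may be shared between copies.

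Most transcription factors of the early response, which are induced without new protein synthesis, rose. Of 24 tested, 20 were higher and 3 lower (median 1.27, 1.90 on ERCC reads). For 2 of the 24 only the carboplatin libraries passed the filter on low counts, so they had to be higher. Of the other 22 genes 18 were higher and 3 lower. The orphan receptor NR4A1 rose from 1.29, 1.87 and 1.62 CPM to 15.7, 11.9 and 16.7 CPM (3.20 ± 0.17), FOSB from 2.34, 2.31 and 3.18 CPM to 21.9, 19.1 and 23.4 CPM (3.04 ± 0.13) and EGR1 from 9.26, 8.36 and 9.67 CPM to 26.1, 24.7 and 29.4 CPM (1.56 ± 0.08). The AP-1 member FOSL1 went the other way, from 352, 332 and 363 CPM to 212, 187 and 220 CPM (-0.76 ± 0.06), and MYC was at -0.29 ± 0.05 (0.34 on ERCC reads). In the stress pathway of ATF4 and the endoplasmic reticulum, 14 of 24 genes were higher and 9 lower (median 0.29). Of all genes 40.4% were higher and 37.3% lower. CHAC1, which degrades glutathione, rose from 0.763, 0.754 and 0.864 CPM to 7.66, 7.42 and 8.83 CPM (3.33 ± 0.11), DDIT3 (CHOP) by 1.86 ± 0.09 and PPP1R15A (GADD34) by 1.53 ± 0.03. Among chaperones of the endoplasmic reticulum HSPA5 (-0.40 ± 0.03, 0.23 on ERCC reads) and PDIA4 (-0.88 ± 0.04) fell in share, while the co-chaperone DNAJB9 rose by 1.31 ± 0.06.

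EGFR, the driver kinase of this line with a gene of 193 kb, fell from 979, 1099 and 1091 CPM to 317, 313 and 306 CPM (-1.76 ± 0.05, -1.12 on ERCC reads). Its ligand AREG rose from 8.66, 8.28 and 9.37 CPM to 24.1, 24.2 and 24.1 CPM (1.46 ± 0.06). Over the ligands and ERK feedback genes 10 of 22 were higher and 7 lower (median 0.11, 0.75 on ERCC reads). These counts lie near the shares of all genes, 40.4% higher and 37.3% lower. Genes that handle platinum and thiols were lower on balance, 16 lower against 10 higher of 30 (median -0.40, 0.23 on ERCC reads). Among the NRF2 targets and glutathione genes 10 of 16 were lower. AKR1B10, an aldo-keto reductase, fell from 691, 689 and 660 CPM to 88.0, 95 and 92.3 CPM (-2.89 ± 0.04), although its gene spans only 13.8 kb, and TXNRD1, thioredoxin reductase, from 2694, 2800 and 2604 CPM to 864, 884 and 842 CPM (-1.65 ± 0.04). SLC7A11, the cystine importer, was at -1.19 ± 0.05 and GCLM, which makes glutathione, at -1.03 ± 0.04, and these genes were also lower on ERCC reads (-2.25, -1.01, -0.55 and -0.39 in the order named). Exporters that can carry platinum fell, ABCC2 from 217, 229 and 220 CPM to 84.1, 86.4 and 82.4 CPM (-1.40 ± 0.03) and ATP7B with a change of -1.96 ± 0.09. The copper importer SLC31A1, which can admit platinum, was at -0.30 ± 0.04 (0.34 on ERCC reads), while SLC31A2 rose by 1.56 ± 0.06 and the glutathione transferase GSTM3 from 148, 147 and 145 CPM to 378, 391 and 367 CPM (1.37 ± 0.03).

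The BCL2 family, which holds both activators and blockers of apoptosis, was mixed, with 11 of 17 genes higher and 4 lower (median 0.33). Of all genes 40.4% were higher and 37.3% lower. Without 2 members that passed the filter only with the carboplatin libraries, 9 of 15 were higher and 4 lower. The pore-forming BAK1 fell in share by 0.25 (0.38 on ERCC reads) beside BAX, and the blocker BCL2A1 rose by 1.52 ± 0.36 from under 1 CPM. BMF rose from 1.95, 1.47 and 1.58 CPM to 16, 15.6 and 16.2 CPM (3.26 ± 0.10) and PMAIP1 (NOXA) from 25.4, 25.7 and 25.1 CPM to 87.3, 92.1 and 87.9 CPM (1.81 ± 0.04). BCL2, which blocks apoptosis and has a gene of 197 kb, fell from 9.88, 9.60 and 9.71 CPM to 1.75, 1.92 and 1.62 CPM (-2.46 ± 0.08). Of 21 death receptor and caspase genes 12 were higher and 3 lower. For 1 of the 21 only the carboplatin libraries passed the filter, and of the other 20 genes 11 were higher. CASP10 was at 2.53 ± 0.09, and the decoy receptor TNFRSF10D went from 47.5, 47.0 and 46.8 CPM to 183, 189 and 183 CPM (1.97 ± 0.03). The autophagy genes GABARAPL1, from 24.0, 23.7 and 21.1 CPM to 187, 189 and 183 CPM (3.02 ± 0.05), and MAP1LC3B, by 1.87 ± 0.03, rose in a list with 14 higher and 5 lower of 22.

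Genes of cell identity changed without a single direction. Among 20 mesenchymal genes 11 were higher and 5 lower, beside 40.4% and 37.3% of all genes (median 0.38, and 0.04 over all genes). FN1, fibronectin, rose from 469, 506 and 497 CPM to 2509, 2547 and 2472 CPM (2.35 ± 0.04) and the repressor SNAI1 from 1.80, 1.62 and 1.86 CPM to 23.7, 22.6 and 25.5 CPM (3.76 ± 0.08), whereas the growth factor TGFB2 fell from 53.7, 57.0 and 54.8 CPM to 13.9, 13.7 and 13.2 CPM (-2.02 ± 0.05). Among 34 epithelial and keratinising genes 19 were higher and 10 lower (median 0.74). Leaving out 2 that passed the filter only with the carboplatin libraries, 17 of 32 were higher and 10 lower. SPRR1B, of the cornified envelope, rose from 1.58, 1.02 and 1.60 CPM to 13.7, 12.8 and 13.5 CPM (3.26 ± 0.14) and the epithelial factor ELF3 from 21.5, 22.6 and 23.1 CPM to 142, 138 and 143 CPM (2.66 ± 0.04), while the basal keratin KRT5 fell from 471, 459 and 470 CPM to 120, 112 and 123 CPM (-1.98 ± 0.04). The fibroblast and endothelial markers that rose with these genes, COL1A1 (4.38, 4.50 and 4.38 CPM to 22.1, 17.5 and 25.1 CPM) and CDH5 (7.94, 8.77 and 8.18 CPM to 36.2, 33.5 and 35.9 CPM), stood beside defining markers near 0.

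Every gene of ribosome biogenesis tested was lower in share, 20 of 20, with a median of -0.66 (-0.02 on ERCC reads, where 4 were higher and 4 lower). On ERCC reads 68.0% of all genes were higher and 8.91% lower. UTP20, a subunit of the small-subunit processome in a gene of 106 kb, fell from 89.4, 98.0 and 93.1 CPM to 22.0, 21.9 and 20.2 CPM (-2.13 ± 0.05), and FBL, the methyltransferase fibrillarin, from 264, 257 and 256 CPM to 128, 130 and 128 CPM (-1.01 ± 0.03). NCL, nucleolin, went from 2114, 2173 and 2024 CPM to 1354, 1369 and 1293 CPM (-0.65 ± 0.04), with overlapping libraries on ERCC reads (-0.01). The proteins of the ribosome itself did not share this, since of 76 genes 16 were higher and 22 lower with a median of -0.01, and all 76 were higher on ERCC reads (median 0.63). The higher members numbered 8 without parental library b and 9 without parental library a or carboplatin library a. With library totals that were not TMM-adjusted, the median on gene reads turned to 0.12. The cholesterol synthesis list also moved nearly as 1, with 22 of 23 genes higher (median 0.65, 1.29 on ERCC reads). HMGCS1, the HMG-CoA synthase of the pathway, rose from 168, 172 and 157 CPM to 474, 497 and 462 CPM (1.53 ± 0.04).

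Carboplatin was also tested directly against each erlotinib group, in comparisons that share the carboplatin libraries and use no parental library. Against erlotinib_24h, 6831 of 16639 genes were higher after carboplatin (41.1%) and 6907 lower (41.5%), and against DTP, 6390 of 16471 were higher (38.8%) and 6650 lower (40.4%). This even split held on gene reads and not with ERCC reads as library size, where 11952 genes were higher and 2371 lower against erlotinib_24h (2496 calls reversed) and 9912 higher and 2834 lower against DTP (891 reversed). The values that follow are on gene reads unless ERCC reads are named. Genes of 500 kb or more had a median of -2.39 against erlotinib_24h, with 82.3% lower, and of -2.60 against DTP, with 86.5% lower. PTPRG stood at 21.3, 22.2 and 23.4 CPM in erlotinib_24h against a carboplatin mean of 1.22 CPM in that comparison (-4.19 ± 0.08), and at 33.6, 35.0 and 33.5 CPM in DTP (-4.79 ± 0.07). HDAC4 (-3.21 and -3.76) and WWOX (-4.10 and -3.49) were likewise lower than in either erlotinib group.

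The cell-cycle lists separated the treatments further. All 35 replication genes and all 30 mitotic genes were higher after carboplatin than in erlotinib_24h (medians 1.82 and 1.20). Against DTP all 30 mitotic genes were higher (median 1.28), while of the replication genes 21 were higher and 7 lower (median 0.35), or 32 and 1 on ERCC reads (0.93). MCM6 stood at 18.4, 17.6 and 16.3 CPM in erlotinib_24h beside a carboplatin mean of 93.2 CPM (2.42 ± 0.05), and at 107, 107 and 104 CPM in DTP beside 94.1 CPM (-0.17 ± 0.04). CDKN1A at 6.27, 6.35 and 6.76 CPM in erlotinib_24h and 43.7, 45.2 and 45.5 CPM in DTP was far below its carboplatin level (5.31 ± 0.05 and 2.53 ± 0.04 on the log2 scale). DUSP6, a feedback phosphatase of ERK, was higher after carboplatin than in both erlotinib groups (6.55 ± 0.08 and 3.96 ± 0.06).

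On gene reads the interferon list ran the other way, with 25 lower and 5 higher of 36 genes after carboplatin against erlotinib_24h (median -1.24) and 40 lower and 1 higher of 41 against DTP (median -3.83). Against DTP 10 of the 41 genes passed the filter on low counts only with the DTP libraries and had to be lower, and of the other 31 genes 30 were lower; against erlotinib_24h this held for 5 of the 36, and of the other 31 genes 21 were lower. On ERCC reads 17 genes were lower and 13 higher against erlotinib_24h (median -0.21), and 38 lower and 1 higher against DTP (median -3.25). IFI6 did not differ detectably from erlotinib_24h (2.19, 2.18 and 1.92 CPM beside a carboplatin mean of 1.77 CPM, -0.24 ± 0.12) and was far below DTP (117, 116 and 122 CPM, -6.05 ± 0.06). Early response factors were higher than in either erlotinib group for 20 of 24 genes, with 3 and 4 lower (medians 1.48 and 1.21). IL11 was higher by 8.12 ± 0.10 than in erlotinib_24h and by 4.76 ± 0.06 than in DTP, and FN1 was slightly higher than in erlotinib_24h (0.58 ± 0.03) and much lower than in DTP (-3.69 ± 0.03).

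Reads from interspersed repeats took a larger share of the libraries after carboplatin. Repeat reads other than ribosomal RNA numbered 1.19, 1.22 and 1.20 per 100 gene reads in the parental and 1.85, 1.85 and 1.78 in the carboplatin libraries. Of 1051 repeat subfamilies 763 were higher (72.6%) and 38 lower (3.62%) on gene reads, and 961 higher (91.4%) and 11 lower (1.05%) on ERCC reads, with medians of 0.56 and 1.18. Of 57 families 35 were higher (61.4%) and 1 lower (1.75%) on gene reads, and 48 higher (84.2%) and 1 lower (1.75%) on ERCC reads. Scaled to repeat reads without ribosomal RNA, 285 subfamilies were higher and 196 lower, a share of 59.3% higher among those called against 95.3% on gene reads. The tables do not say whether a repeat read comes from the repeat's own promoter or from a gene or intron that contains it.

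The families differed among themselves in the size of the rise. Endogenous retroviruses rose more than LINE-1 (L1) and Alu elements: ERVK went from 176, 184 and 177 CPM to 320, 322 and 309 CPM (0.82 ± 0.03) and ERV1 by 0.81 ± 0.03, whereas L1 went from 3843, 4099 and 3857 CPM to 4961, 5168 and 4821 CPM (0.34 ± 0.04). Scaled to repeat reads without ribosomal RNA, ERV1 and ERVK stayed higher (0.33 and 0.35) and L1 turned to -0.14, while Alu did not pass the test (-0.09 ± 0.04). Centromeric repeats rose from 9.88, 10.2 and 9.50 CPM to 23.9, 22.6 and 23.1 CPM (1.23 ± 0.04). L1HS, the L1 subfamily that is still mobile in humans, went from 51.7, 55.1 and 52.1 CPM to 64.1, 65.0 and 61.0 CPM, a log2 change of 0.26 ± 0.04 on gene reads and 0.90 on ERCC reads that turned to -0.22 on repeat reads without ribosomal RNA. L1PA2, its closest relative, changed by 0.43 ± 0.04 on gene reads and by -0.05 on repeat reads without ribosomal RNA, where it did not pass the test. The machinery that silences repeats through methylation of histone H3 at lysine 9 was tested in 22 genes. Of these, 6 were higher and 12 lower, beside 40.4% and 37.3% of all genes (median -0.23, 0.41 on ERCC reads). SETDB1, the methyltransferase of that pathway at many retrotransposons, went from 31.8, 32.4 and 31.2 CPM to 24.1, 24.6 and 24.3 CPM (-0.39 ± 0.04, 0.25 on ERCC reads), and EHMT1, with a gene of 217 kb, from 52.4, 52.3 and 56.5 CPM to 25.5, 24.2 and 26.1 CPM (-1.09 ± 0.05, -0.46 on ERCC reads).

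Single subfamilies stood out in both directions. HERVK13-int, the internal part of an endogenous retrovirus, rose from 7.41, 7.17 and 7.36 CPM to 38.8, 36.4 and 37.4 CPM (2.36 ± 0.05), and kept 1.88 on repeat reads without ribosomal RNA. MER52-int (2.34), HERVP71A-int (2.26), the satellite GSATII (2.09), L1P4a (1.99) and L1M2c (1.90) rose from under 1 CPM. All 10 LTR12 and HERV9 subfamilies tested (median 0.80) and all 6 SVA subfamilies (median 0.74) were higher on gene reads, as were the 8 youngest L1 subfamilies (median 0.38), against 72.6% of all subfamilies. The median over all subfamilies was 0.56. All AluS and AluJ subfamilies tested were higher too, whereas of 20 AluY subfamilies 8 were higher and 4 lower (median 0.155). Of 19 HERVK and LTR5 subfamilies 13 were higher, and of 18 LTR10 subfamilies 14 were higher and 1 lower. BC200, a neuronal RNA derived from an Alu monomer, fell from 1.94, 2.46 and 2.36 CPM to 0.634, 0.499 and 0.684 CPM (-1.89 ± 0.16), and was the main member of the scRNA family, the 1 family that was lower (-1.82). The simple repeats (CTCTGT)n (-1.88), (CAC)n (-1.60) and (TCTC)n (-1.34), ORSL-2a (-1.75) and LTR1B1 (-1.44) fell as well.

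**Figure D5:**
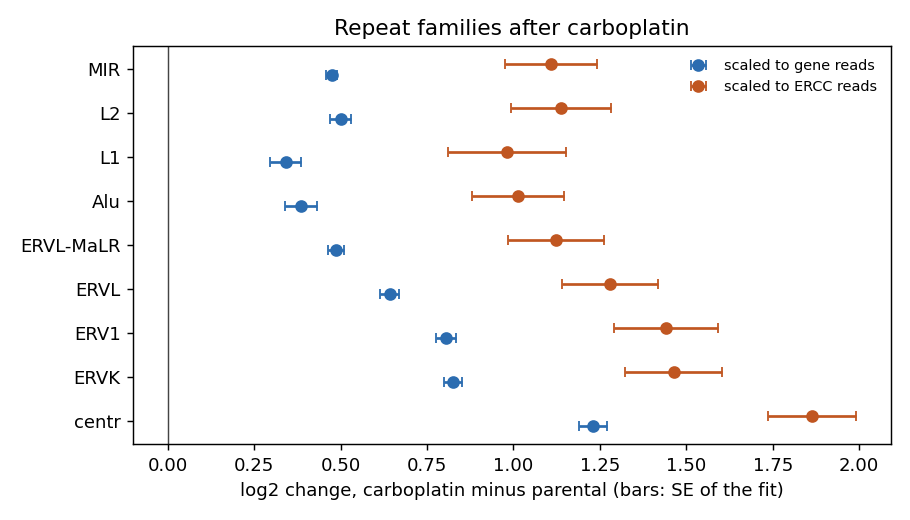
Log2 change (carboplatin minus parental) of 9 repeat families on gene reads and on ERCC reads, with bars of 1 standard error of the fit. The order, which scaling to ERCC reads can hardly alter, runs from L1 (0.34 and 0.98) to centromeric repeats (1.23 and 1.86). On repeat reads without ribosomal RNA, not drawn, L1 was at -0.14.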

How the data were processed

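RNA of PC9 cells was sequenced from polyA-selected libraries with ERCC spike-in RNA. Per the submitters' processing notes the authors used Salmon, with no version; the deposited values are expected counts (estimated reads) per gene, repeat subfamily, repeat family and ERCC transcript, not scaled between libraries. The genome build is not given in the sources used here, nor is the annotation. The 3 columns of each table that match no sample were not used. Gene identifiers were matched to RefSeq symbols (27814 of 30727; 0.253% of reads had none).

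Expected counts were rounded. Genes and subfamilies passed edgeR's expression filter (15967 and 1051 tested); 57 families were tested unfiltered. edgeR 4.0.16 (R 4.3.3) fitted its quasi-likelihood model to the 6 libraries with a group term, with TMM-scaled gene reads or total ERCC reads as library size, and Benjamini-Hochberg adjustment ran over the whole table. Carboplatin was compared with erlotinib_24h and with DTP in separate fits of 6 libraries. The test was checked on simulated counts, in which a small part of the genes was changed, equally up and down, and recovered most of them. A change as broad as that in these libraries was not simulated. With 3 libraries per group an exact permutation test cannot go below p = 0.1.

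Gene spans came from RefSeq GRCh38.p14 for 96.3% of tested genes, and spliced lengths from GENCODE for 85.1%. Named genes were the 12 highest and 12 lowest changes called on both scales without overlap at 10 CPM or more, up to 8 members per list with the smallest p or a described role, and 12 genes and 2 L1 subfamilies named always; some genes and 1 list so chosen are not reported here. A gene read cannot be split between near-identical copies, and the strand of counting is not given. The members and lists were chosen with earlier results of these data known, as were the span classes and the motifs. Whether replicate letters pair the libraries is not stated. Correlations of deviations between same-letter libraries were -0.26, 0.38 and 0.64 for a, b and c, which does not settle it. Alternatives were DESeq2 1.42.0, other filters, other library sizes, fits of more libraries, a replicate block and leaving out each library. Plots were made in Python 3.11.15 (matplotlib 3.10.9).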

Additional observations from a re-analysis of the deposited data

How the results depend on the processing

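Fits of 16 libraries, DESeq2 and the replicate block changed no direction and no call of the 171 genes and subfamilies named, and leaving out 1 library changed 5 of 1026 values: MKI67 (0.12 without parental a, not called), MDM2 (-0.12 without carboplatin b, called), H3C14 and H3C15 (2.74 without parental b, called) and BRCA1, not called, which ran from -0.109 without carboplatin b to 0.019 without carboplatin c. With the replicate letter as a block 12853 genes were called, 6648 higher and 6205 lower, a similar number. Whether the letters pair the libraries is not known. Of the calls on gene reads, 11516 to 11980 held when 1 library was left out and none reversed. Genes of 200 kb or more called lower on gene reads numbered 684 to 798 over the alternatives (765 as reported).

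Scaling to ERCC reads changed the sign of these values to positive: the medians of genes of 50 to 100 kb (0.51) and 100 to 200 kb (0.25), CHEK1 (0.26), FANCD2 (0.22), FANCI (0.15), USP1 (0.16), ERCC4 (0.10), BRCA1 (0.63), CDC20 (0.31), KIF11 (0.42), MAD2L1 (0.36), BAK1 (0.38), RRM1 (0.35), MDM2 (0.58), BAX (0.21), FBXO22 (0.15), TNFAIP3 (0.53), CD274 (0.35), MYC (0.34), HSPA5 (0.23), SLC31A1 (0.34) and SETDB1 (0.25). On that scale CHEK1, FANCD2, FANCI, USP1, ERCC4, CDC20, BAX, FBXO22, HSPA5 and SETDB1 did not pass the test. The genes of 200 kb or more that were lower than in erlotinib_24h numbered 823 on gene reads and 504 on ERCC reads.

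In a fit of all 18 libraries the ERCC calls were 75 genes, 1 subfamily, 0 families (edgeR; 1 family at an unadjusted p under 0.05) and 6 genes of 200 kb or more. That fit includes the DTP_TSA library a, which has 99.9 ERCC reads per 100 gene reads; in 17 libraries without it 10618 genes were higher and 1213 lower. In the same 18 libraries 519 subfamilies were called on gene reads, 11 of 66 counts of list members moved by over 1.5 times (higher members of mitosis 13, Fanconi 5, checkpoint 3, nucleic acid sensors 3, H3K9 methylation 3, ribosomal proteins 2 and mitochondrial genes 3; lower members of ribosomal proteins 5, and of mitochondrial genes, NF-kB and death receptors 1 each), and MKI67, TNFAIP3 and L1HS were not called. Scaled to all repeat reads, whose ribosomal part ran from 0.481 to 3.56 per 100 gene reads, 8 subfamilies and 1 family were called; without ribosomal repeats, 481 and 20. The fit without the DTP_TSA library, the non-overlap counts and the repeat scaling without ribosomal RNA were chosen after seeing the data. Depth limits the histones and repeats under 1 CPM.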

Other observations

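Genes of the mitochondrial genome, which are transcribed apart from the nuclear genes, were 7 higher and 3 lower of 13 on gene reads (median 0.09, 0.73 on ERCC reads), where 40.4% of all genes were higher and 37.3% lower, and 3 higher and 1 lower in a fit of all 18 libraries. ND6 and ND5, subunits of respiratory complex I, were the highest at 0.76 and 0.73, and ND3, of the same complex, was the lowest at -0.44. Among sensors of foreign nucleic acid 9 of 14 genes were higher and 2 lower, with TLR3, the endosomal receptor for double-stranded RNA, at -2.48 and RIGI, the cytosolic one, at 0.78; the higher members numbered 5 without parental library a or carboplatin library a.

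The CCAAT motif was in 30 of 37 histone promoters (81.1%), 20 of 25 mitotic promoters (80.0%) and 19 of 30 replication promoters (63.3%), against 42.6% of the promoters of tested genes. The ATF4 element TGATGNAA was in 4 of 23 promoters of the ATF4 and stress list, those of CHAC1, HERPUD1, ASNS and CEBPG, which changed by 3.33, 1.57, 1.03 and 0.29, against 2.79% of the promoters of tested genes. Of the promoters of genes called higher and lower 2.78% and 3.02% held it.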
